A study of Mus musculus with 24 samples.

Results

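The Ikaros family comprises 5 zinc finger transcription factors, encoded in the mouse by Ikzf1 (Ikaros), Ikzf2 (Helios), Ikzf3 (Aiolos), Ikzf4 (Eos) and Ikzf5 (Pegasus). They were followed here in naive CD4 T cells with and without Raptor, the subunit that defines the kinase complex mTORC1. The members are the genes of these symbols, 5 of the 17097 genes measured, and each was represented by 2 probe sets. The probe set with the higher mean over all 24 arrays gave the reported level and the other served as a check. The family was chosen by the measured levels of Ikzf2, which were higher in Raptor-deficient cells at 8 h and 24 h of stimulation. Those differences of Ikzf2, its changes with stimulation and the differences between genotypes in these changes all use those samples, and are therefore given as descriptions without a test. Among the comparisons of Ikzf2 the unstimulated one is tested, with a spread estimated over all 24 arrays.

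Naive CD4 T cells (CD4+ CD62Lhi CD44lo CD25-) had been sorted from spleen and peripheral lymph nodes of wild-type mice, whose label gives C57BL/6, and of CD4(cre)Raptor(fl/fl) mice, whose label gives no strain. In the latter, Cre recombinase driven by the Cd4 promoter acts on floxed Raptor alleles, in CD4 and CD8 lineage cells alike because thymocytes pass through a CD4-positive stage. These cells are called Raptor-deficient. RNA came from unstimulated cells, or from cells stimulated for 8 h or for 24 h through CD3 and CD28 with plate-bound antibodies, with 4 samples in each of the 6 groups. The labels give no age. They do not state that each replicate is a different animal, and the p-values then reflect only sample-to-sample spread, which may be technical.

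Family members bind DNA through N-terminal zinc fingers, of which those of Ikaros recognise sites with the core GGGAA, and pair with themselves and with each other through C-terminal zinc fingers. They act largely by bringing the NuRD complex and other corepressors to their sites. Ikaros and Aiolos set thresholds of lymphocyte activation, Helios marks many thymus-derived regulatory T cells, Eos works with the regulatory T cell factor Foxp3, and Pegasus is the most divergent member and binds a different sequence.

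All values are log2 intensities, on which a difference of 1 is a doubling of the measured intensity. Levels of different probe sets are not compared. A gene was called when its adjusted p, from limma with Benjamini-Hochberg adjustment over all 17097 genes, was under 0.05. The median of all gene values was 5.51, and a level below it is called near background here. No background level was measured, so a level above 5.51 is not thereby shown to be clear of background. Array medians lay between 5.15 and 5.29, and the lowest correlation between replicates of a group was 0.976. Replicates 1, 2 and 3 of unstimulated Raptor-deficient cells scattered more around their group means (residual SD 0.28, 0.222 and 0.206) than the other 21 arrays (0.119 to 0.172). Liver transcripts were present in the first replicate of each 24 h group: the albumin transcript Alb was at 9.02 and 9.11 there and between 6.14 and 6.71 on the other 22 arrays. Rptor itself, the targeted gene, was 0.62 lower in Raptor-deficient cells without stimulation (SE 0.18, adjusted p = 0.075, with overlapping groups), 1.01 lower at 8 h (adjusted p = 0.000292) and 0.64 lower at 24 h (adjusted p = 0.0109). On the second Rptor probe set the Raptor-deficient samples lay below all wild-type samples at each time. Its means were 5.64 against 6.23 without stimulation, 5.69 against 6.35 at 8 h and 5.60 against 6.20 at 24 h. Whether the Rptor probe sets lie in the deleted part is not known here. The 13 measured T cell markers of 16 listed had no group mean below the median of all values.

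Ikzf2, which encodes Helios, was higher in Raptor-deficient than in wild-type cells at all 3 times. Without stimulation, the 4 wild-type samples had log2 levels of 5.23, 4.94, 4.69 and 4.58, and the 4 Raptor-deficient samples had 5.85, 5.23, 5.39 and 5.45. Raptor-deficient replicate 2 met the highest wild-type sample, and the other 3 Raptor-deficient samples lay above every wild-type sample. The difference was 0.62 (SE 0.15, 95% interval 0.31 to 0.93), a 1.54-fold higher intensity, with adjusted p = 0.03. The call ended without wild-type replicate 2, 3 or 4 (adjusted p = 0.0538, 0.107 and 0.104) and without Raptor-deficient replicate 1 (adjusted p = 0.108). It also ended with weighted arrays (0.129) and with the spread estimated from these 2 groups alone (0.212). In bulk samples, fewer cells of a type and less RNA per cell cannot be told apart.

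After 8 h of stimulation, wild-type Ikzf2 stood at 4.58, 4.11, 4.53 and 4.56, and Raptor-deficient Ikzf2 at 6.13, 5.84, 6.13 and 5.56. After 24 h the wild-type levels were 5.08, 5.39, 5.49 and 5.15, and the Raptor-deficient levels 6.57, 6.52, 6.48 and 6.30. All 4 Raptor-deficient samples lay above all 4 wild-type samples at both times. The differences used for the selection were 1.47 at 8 h (2.77-fold) and 1.19 at 24 h (2.28-fold). The means of all 3 wild-type groups (4.86, 4.44 and 5.28) and of unstimulated Raptor-deficient cells (5.48) were below the median of all genes, so these folds are of measured intensities near background.

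The second Ikzf2 probe set placed the 6 groups in the same order. Its differences between genotypes were 0.68 without stimulation (SE 0.16, adjusted p = 0.0297), 1.11 at 8 h and 1.22 at 24 h. From low to high, the Ikzf2 means ran from wild type at 8 h through wild type unstimulated, wild type at 24 h, Raptor-deficient unstimulated and Raptor-deficient at 8 h to Raptor-deficient at 24 h. Each group overlapped the next in this order except the last 2, whose samples lay apart.

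**Figure D1:**
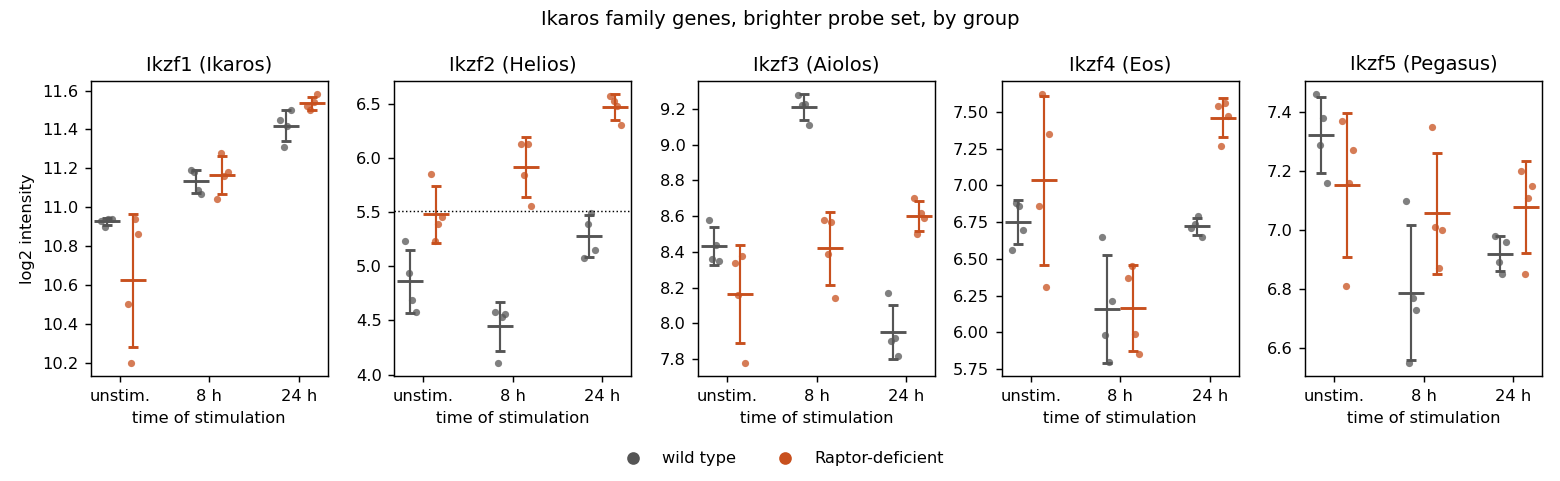
Log2 intensity (vertical axis, a separate scale for each gene) of the brighter probe set of each family gene, by time of stimulation (horizontal axis). Points are samples, bars the mean and SD of 4 samples, and the dotted line in the Ikzf2 panel is the median of all genes, 5.51. Ikzf2 was higher in the Raptor-deficient group at each time, with 24 h means of 6.47 and 5.28.

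Within each genotype, the changes of Ikzf2 with time are given as values only, since they draw on the stimulated samples that chose the gene. In wild-type cells the mean changed by -0.42 from the unstimulated state to 8 h and by 0.83 from 8 h to 24 h, to end 0.42 above the start. The second probe set gave -0.30, 0.48 and 0.18. Wild-type samples at 24 h lay above all those at 8 h on both probe sets, and both times overlapped the unstimulated state. In Raptor-deficient cells the mean changed by 0.44 to 8 h and by 0.55 from 8 h to 24 h, in all by 0.99, where the second probe set gave 0.13, 0.60 and 0.73. Raptor-deficient samples at 24 h lay above all unstimulated ones on both probe sets.

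Ikzf3, which encodes Aiolos, peaked at 8 h in wild-type cells, and its difference between genotypes turned from lower at 8 h to higher at 24 h in Raptor-deficient cells. The wild-type samples had log2 levels of 8.58, 8.36, 8.44 and 8.35 without stimulation, 9.28, 9.22, 9.23 and 9.11 at 8 h, and 8.17, 7.90, 7.92 and 7.82 at 24 h. The 8 h samples lay above all other wild-type samples and the 24 h samples below them. Wild-type Ikzf3 thus rose by 0.78 by 8 h (SE 0.11, adjusted p = 2.44e-06) and fell by 1.26 between 8 h and 24 h, a 2.39-fold fall (adjusted p = 1.89e-09), to end 0.48 below the unstimulated level (adjusted p = 0.000902).

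Raptor-deficient cells had Ikzf3 levels of 8.34, 8.16, 8.38 and 7.78 without stimulation, 8.58, 8.39, 8.57 and 8.14 at 8 h, and 8.70, 8.50, 8.62 and 8.59 at 24 h. On this brighter probe set these samples spanned a narrower range than the wild-type samples and had no peak at 8 h. The difference from the unstimulated state was 0.26 at 8 h (adjusted p = 0.0937), and between 8 h and 24 h it was 0.18 (adjusted p = 0.304), neither past the threshold. The second probe set had its highest mean at 8 h (5.94, 6.23 and 6.11 in time order). Its changes were 0.29 to 8 h (limma, adjusted p = 0.0686) and -0.12 from 8 h to 24 h (adjusted p = 0.556), neither called. The rise of 0.44 from the unstimulated state to 24 h was called (adjusted p = 0.00288), but the second probe set gave 0.17 (adjusted p = 0.298). The 8 h difference of 0.26 passed without unstimulated replicate 1 or 3 (0.31 and 0.33, adjusted p = 0.0456 and 0.0353) and without 8 h replicate 4 (0.35, adjusted p = 0.023).

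Between genotypes, Ikzf3 did not pass the threshold without stimulation (-0.26, SE 0.11, adjusted p = 0.287). At 8 h it was 0.79 lower in Raptor-deficient cells (SE 0.11, adjusted p = 2.83e-05), a 1.73-fold difference, with all 4 samples below all 4 wild-type samples. At 24 h it was 0.65 higher (SE 0.11, adjusted p = 0.000117), a 1.57-fold difference, with all 4 samples above. Both directions held in the second probe set, at -0.64 (adjusted p = 0.000736, with overlapping groups) and 0.76 (adjusted p = 4.4e-05, without overlap).

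The change between 8 h and 24 h differed between the genotypes by 1.44 (SE 0.16, 95% interval 1.11 to 1.77, adjusted p = 4.15e-07), a comparison added after the data were seen. On the second probe set this difference was 1.40 (adjusted p = 2.52e-06). The response at 24 h against the unstimulated state differed by 0.91 (SE 0.16, adjusted p = 0.000264; second probe set 0.77, adjusted p = 0.00325). The response at 8 h differed by -0.53 (SE 0.16, adjusted p = 0.0513), just short of the threshold, where the second probe set gave -0.62 (adjusted p = 0.0325). Leaving out wild-type unstimulated replicate 1, Raptor-deficient unstimulated replicate 4 or Raptor-deficient 8 h replicate 1 or 3 brought it past the threshold (-0.57, -0.65, -0.58 and -0.58, with adjusted p = 0.0451, 0.00738, 0.0435 and 0.0419).

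**Figure D2:**
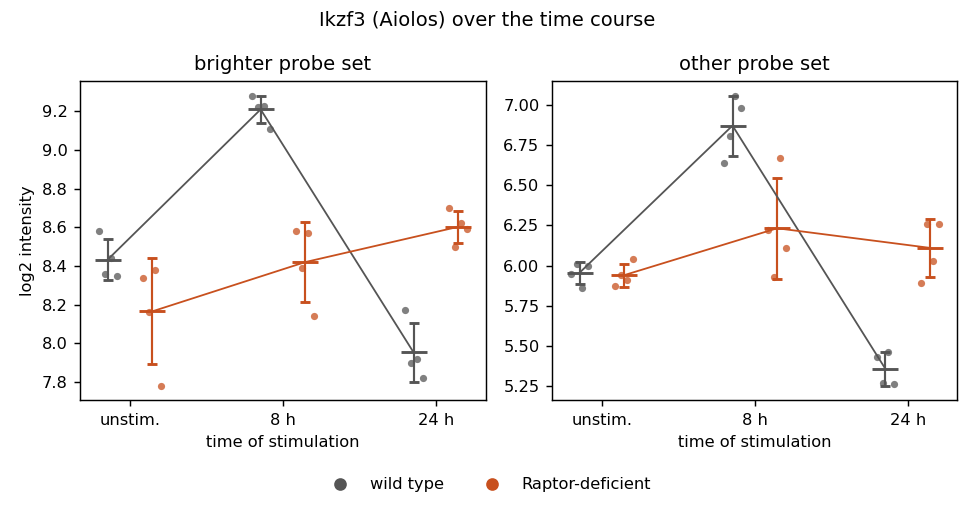
Log2 intensity of Ikzf3 (vertical axis) against time of stimulation (horizontal axis) for the brighter and the other probe set. Points are samples, bars the mean and SD of 4 samples, and lines join the group means. The wild-type mean of the brighter probe set went from 8.43 to 9.21 and 7.95, and the Raptor-deficient mean from 8.17 to 8.42 and 8.60.

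Ranked by mean, Ikzf3 was lowest in wild-type cells at 24 h, followed by Raptor-deficient unstimulated, Raptor-deficient 8 h, wild-type unstimulated, Raptor-deficient 24 h and wild-type 8 h cells. Each group overlapped the next in this order except the last, wild type at 8 h, which stood above all others.

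Ikzf4, which encodes Eos, was higher in Raptor-deficient cells at 24 h. The wild-type samples had log2 levels of 6.71, 6.74, 6.79 and 6.65 at that time and the Raptor-deficient samples 7.54, 7.27, 7.56 and 7.47, without overlap. The difference was 0.74 (SE 0.20, adjusted p = 0.007), a 1.67-fold higher intensity, and the second probe set gave 0.76 (SE 0.18, adjusted p = 0.00292). It stayed past the threshold without replicate 1 of both groups, which carried the liver transcripts, and of unstimulated Raptor-deficient cells (0.71, adjusted p = 0.035).

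Before 24 h the genotypes were not separated. The unstimulated levels of Ikzf4 were 6.56, 6.88, 6.86 and 6.70 in wild-type cells and 6.86, 7.62, 6.31 and 7.35 in Raptor-deficient cells, the widest spread of any family gene in any group (SD 0.58). At 8 h they were 6.65, 5.98, 5.80 and 6.21 against 6.37, 6.45, 5.99 and 5.85. The differences were 0.28 (95% interval -0.12 to 0.69, adjusted p = 0.584) and 0.01 (adjusted p = 0.989).

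Ikzf4 fell by 8 h in both genotypes. The change was -0.59 in wild-type cells (SE 0.20, adjusted p = 0.0174) and -0.87 in Raptor-deficient cells (adjusted p = 0.000902), and the second probe set called both falls too (-0.72 and -0.65). From 8 h to 24 h it rose by 1.29 in Raptor-deficient cells (adjusted p = 1.51e-05) and by 0.56 in wild-type cells (adjusted p = 0.0329), and again both probe sets made both calls (second, 1.08 and 0.49). The difference between these 2 rises, 0.73, did not pass the threshold (SE 0.28, adjusted p = 0.172), so a difference between the genotypes in this rise was not shown.

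The wild-type calls of Ikzf4 rested on few samples. The fall at 8 h lost its call without 8 h replicate 2 or 3 (-0.53 and -0.47, adjusted p = 0.0561 and 0.0805). The rise to 24 h lost it without 8 h replicate 2, 3 or 4 (adjusted p = 0.0934, 0.131 and 0.0524) or 24 h replicate 1, 2 or 3 (0.0556, 0.0649 and 0.0737). At 24 h against the unstimulated state, the wild-type difference was -0.03 (adjusted p = 0.919) and the Raptor-deficient difference 0.43 (adjusted p = 0.0918), which passed without Raptor-deficient unstimulated replicate 2 or 4 (0.62 and 0.53, adjusted p = 0.0102 and 0.0478). In rising order the Ikzf4 means were wild type 8 h, Raptor-deficient 8 h, wild type 24 h, wild type unstimulated, Raptor-deficient unstimulated and Raptor-deficient 24 h, and the samples lay apart between the second and the third of these groups but at no other step.

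Ikzf1, which encodes Ikaros, rose with stimulation in both genotypes. The wild-type samples had log2 levels of 10.93, 10.90, 10.94 and 10.94 without stimulation, 11.19, 11.18, 11.09 and 11.07 at 8 h, and 11.45, 11.31, 11.42 and 11.50 at 24 h. The Raptor-deficient samples had 10.50, 10.20, 10.94 and 10.86, then 11.04, 11.28, 11.16 and 11.18, then 11.52, 11.50, 11.54 and 11.58. Within each genotype the 3 times did not overlap.

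By 24 h Ikzf1 had risen by 0.49 in wild-type cells (SE 0.11, adjusted p = 0.000346) and by 0.91 in Raptor-deficient cells (adjusted p = 7.59e-08). The second probe set gave nearly equal rises, 0.65 and 0.66, both called. The responses at 24 h differed between genotypes by 0.42 on the brighter probe set (SE 0.15, adjusted p = 0.07) and by 0.01 on the second (adjusted p = 0.988). The first of these passed without Raptor-deficient unstimulated replicate 3 or 4 (0.52 and 0.50, adjusted p = 0.0112 and 0.0289).

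At 8 h the 2 Ikzf1 probe sets parted. The brighter one called the rise in Raptor-deficient cells (0.54, adjusted p = 0.000206) and not the difference in wild-type cells (0.20, adjusted p = 0.143). The second called the wild-type rise (0.27, adjusted p = 0.0257) and not the Raptor-deficient difference (0.07, adjusted p = 0.64). The difference between genotypes in the 8 h response was 0.34 on the brighter set (adjusted p = 0.212), and passed without Raptor-deficient unstimulated replicate 3 (0.44, adjusted p = 0.0468). From 8 h to 24 h, Ikzf1 rose by 0.37 in Raptor-deficient cells (adjusted p = 0.0122) and by 0.29 in wild-type cells (adjusted p = 0.0455), the latter not past the threshold without any single 8 h sample or without 24 h replicate 1, 3 or 4 (0.0553, 0.0621, 0.0965 and 0.106, then 0.0892, 0.081 and 0.115), although the second probe set gave 0.38 (adjusted p = 0.00387).

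No difference of Ikzf1 between genotypes passed the threshold at any time. It was -0.30 without stimulation (95% interval -0.52 to -0.08, adjusted p = 0.164), 0.03 at 8 h (adjusted p = 0.902) and 0.12 at 24 h (adjusted p = 0.532), where the highest wild-type and the lowest Raptor-deficient sample both stood at 11.50. Without stimulation, replicates 1 and 2 of the Raptor-deficient cells, both among the arrays of high residual spread, stood lowest at 10.50 and 10.20, and the difference passed without replicate 3 (-0.41, adjusted p = 0.0245). The second probe set gave 0.08 (adjusted p = 0.806). In order of level the Ikzf1 means followed time, with unstimulated cells lowest and 24 h cells highest, and the genotypes overlapped without stimulation and at 8 h.

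The promoter windows of Ikzf1 are shown because this gene rose in both genotypes and because the letters of the family's own core site can be read in them. Each is 300 bases long, 250 before and 50 after an annotated start, read 5′ to 3′ on the gene's strand from RefSeq (GRCm38.p6). Capitals mark GGGAA or, for the other strand, TTCCC.
Ikzf1 promoter chr11:11685675-11685974 (+): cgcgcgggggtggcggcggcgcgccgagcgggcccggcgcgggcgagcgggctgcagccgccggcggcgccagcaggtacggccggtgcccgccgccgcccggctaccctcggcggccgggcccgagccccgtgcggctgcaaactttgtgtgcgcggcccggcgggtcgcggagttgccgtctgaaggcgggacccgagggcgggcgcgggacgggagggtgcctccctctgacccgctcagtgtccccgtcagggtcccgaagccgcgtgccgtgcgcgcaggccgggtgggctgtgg
Ikzf1 promoter chr11:11689927-11690226 (+): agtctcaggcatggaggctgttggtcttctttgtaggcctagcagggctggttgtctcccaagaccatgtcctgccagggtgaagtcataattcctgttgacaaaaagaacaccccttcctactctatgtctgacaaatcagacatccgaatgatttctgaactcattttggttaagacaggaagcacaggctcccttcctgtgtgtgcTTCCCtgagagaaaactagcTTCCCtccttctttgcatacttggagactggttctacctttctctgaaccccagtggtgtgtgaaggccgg
The first window is 81.3% G and C with 52 CpG dinucleotides and held no match on either strand. The second is 49.0% G and C and held 2 matches. Of 32851 promoters of this length, 62.7% held the core on at least 1 strand and 27.1% held 2 or more matches, so a match says little by itself. Which start these cells use was not measured.

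Ikzf5, which encodes Pegasus, fell with stimulation in wild-type cells on its brighter probe set. The wild-type levels were 7.46, 7.29, 7.38 and 7.16 without stimulation, 7.10, 6.55, 6.77 and 6.73 at 8 h, and 6.98, 6.89, 6.85 and 6.96 at 24 h. Every stimulated wild-type sample lay below every unstimulated one. The falls were 0.53 at 8 h and 0.40 at 24 h on the log2 scale, recorded as differences of -0.53 (SE 0.12, adjusted p = 0.000883) and -0.40 (adjusted p = 0.00811). The second probe set gave -0.17 (adjusted p = 0.38) and -0.19 (adjusted p = 0.28), neither called.

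Raptor-deficient cells had Ikzf5 levels of 7.37, 6.81, 7.16 and 7.27 without stimulation, 7.35, 7.01, 6.87 and 7.00 at 8 h, and 7.20, 6.85, 7.11 and 7.15 at 24 h. These groups overlapped throughout, and their differences from the unstimulated state, -0.09 and -0.07, were not called. The response at 8 h differed between genotypes by 0.44 (SE 0.17, adjusted p = 0.146), which passed the threshold without wild-type 8 h replicate 1 (0.54, adjusted p = 0.0494). A different response of Ikzf5 was therefore not shown. The differences between genotypes were -0.17, 0.27 and 0.16 in time order, and none was called with all samples. At 8 h it passed without wild-type replicate 1 (0.37, adjusted p = 0.0476), while the second probe set had the opposite sign (-0.17, adjusted p = 0.536). In level order, each of the 6 Ikzf5 groups overlapped the next.

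The promoter window of Ikzf5, the member with a wild-type fall on 1 of its probe sets, is given in the same way, with 1 match to the core and 65.7% G and C.
Ikzf5 promoter chr7:131410429-131410728 (-): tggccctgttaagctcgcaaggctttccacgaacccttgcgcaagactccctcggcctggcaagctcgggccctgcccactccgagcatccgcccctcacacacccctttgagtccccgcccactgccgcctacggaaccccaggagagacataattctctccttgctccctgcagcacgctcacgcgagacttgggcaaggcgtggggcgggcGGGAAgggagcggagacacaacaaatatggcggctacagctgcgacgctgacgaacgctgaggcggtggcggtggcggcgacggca

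**Figure D3:**
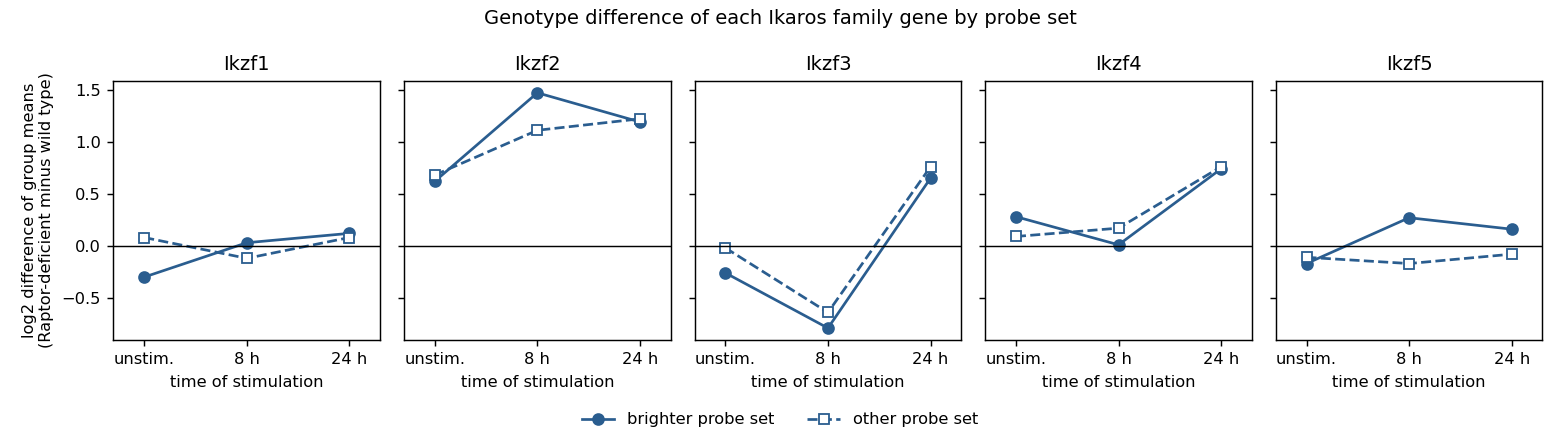
Difference of group means, Raptor-deficient minus wild type, in log2 units (vertical axis) against time of stimulation (horizontal axis) for both probe sets of each family gene. Points are differences of means of 4 samples each, and the line at 0 marks equal levels. For Ikzf2, Ikzf3 and Ikzf4 both probe sets had the same sign at each time. Ikzf3 was at -0.79 and -0.64 at 8 h and at 0.65 and 0.76 at 24 h. From 8 h to 24 h the Ikzf2 difference went from 1.47 to 1.19 on the brighter probe set and from 1.11 to 1.22 on the other. From the unstimulated state to 8 h the Ikzf4 difference went from 0.28 to 0.01 and from 0.09 to 0.17.

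Counted over the family, 1 of 5 members was called higher and none lower in unstimulated Raptor-deficient cells (limma, 3 of 5 at an unadjusted p under 0.05). Of all genes 1.94% were called there, 0.702% higher and 1.24% lower. At 8 h, 1 of the 4 members other than Ikzf2 was lower and none higher, against 12.9% of all genes called, 4.14% higher and 8.77% lower. The share of all genes with every Raptor-deficient sample above the wild-type samples was 6.66% at 8 h, and with every sample below it was 12.5%. At 24 h, 2 of these 4 members were higher and none lower, against 21.5% of all genes called, 8.35% higher and 13.1% lower, and 12% of all genes had every Raptor-deficient sample above. Since Ikzf2's differences chose the family, nothing particular to it is read from these counts.

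The responses to stimulation were counted over the 4 members other than Ikzf2. In wild-type cells 1 rose and 2 fell at 8 h, where 39.7% of all genes were called (18.9% higher, 20.8% lower). By 24 h 1 rose and 2 fell (49.7%, with 25.4% higher and 24.3% lower), and between 8 h and 24 h 2 rose and 1 fell (28.3%, with 17.4% higher and 11% lower). The 3 called between 8 h and 24 h were 1 or 2 when any single sample of these groups was left out.

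In Raptor-deficient cells 1 of the 4 rose and 1 fell at 8 h, where 32.8% of all genes were called (16% higher, 16.8% lower). By 24 h 2 rose and none fell (39.1%, with 21.6% higher and 17.5% lower), and between 8 h and 24 h 2 rose and none fell (23%, with 15.2% higher and 7.81% lower). The genes that rose were Ikzf1 and Ikzf3 by 24 h, and Ikzf1 and Ikzf4 between 8 h and 24 h.

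Of the 4 members other than Ikzf2, none was called for a different response between genotypes at 8 h (limma, 3 at an unadjusted p under 0.05), where 6.29% of all genes were called, 1.94% with a higher and 4.36% with a lower response. At 24 h 1 was called, Ikzf3, against 13.3% of all genes, 5.26% higher and 8.01% lower. For the change between 8 h and 24 h it was again Ikzf3 alone, against 4.53% of all genes, 1.33% higher and 3.2% lower. Across the 49 tests of members and comparisons, both probe sets were called in the same direction in 17, in opposite directions in 0, and only 1 of them was called in 6.

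Genes with a pattern most like that of a member were found by the root mean square difference of the 6 centred group means. The search was made for Ikzf2, Ikzf3 and Ikzf4, the members whose own group means spanned at least 1. It covered 9008 genes, leaving out those near background in every group, and set no minimum span for them. A gene could therefore enter through its highest group alone. This search is a description, and for Ikzf2 it carries the differences used for the selection. Nearest to Ikzf2 was Gata3 (distance 0.28), the factor that directs T helper 2 differentiation, then Rragd (0.30), a Rag GTPase that recruits mTORC1 to lysosomes, Pax5 (0.32), the defining factor of B cells, Cldn10 (0.33) and Swap70 (0.34). The Gata3 means were 6.24, 5.95 and 6.18 in wild-type cells and 6.27, 6.69 and 7.52 in Raptor-deficient cells, in time order. Pax5 was near background in every group except Raptor-deficient cells at 24 h (6.08). Cldn10 was near background in every group except stimulated Raptor-deficient cells (5.54 and 6.15).

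Nearest to Ikzf3 were Tle1 (0.20), a corepressor of the Groucho family, Med12l (0.20), Stat2 (0.21), which carries type I interferon signals, Zfp513 (0.21) and Tnfrsf12a (0.22). Nearest to Ikzf4 were Amigo2 (0.13), Socs3 (0.15), an inhibitor of cytokine signalling, Trpv2 (0.15), Ssbp3 (0.16) and Ech1 (0.16). Tle1 was near background except in wild-type cells at 8 h (5.52), and Socs3 except in Raptor-deficient cells at 24 h (5.95). When a gene's probe sets were averaged in place of taking the brightest, 4 of the 5 genes nearest to Ikzf2 were kept, 2 of 5 for Ikzf3 and 3 of 5 for Ikzf4.

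Listed partners of the family were called in both directions. Of 20 listed genes 19 were measured, of NuRD, other corepressors and, with Smarcb1 and Smarcc1, the SWI/SNF remodelling complex. Of these, 12 rose and 6 fell in wild-type cells by 24 h (median change 0.43, against -0.03 over all genes, of which 25.4% rose and 24.3% fell). Rbbp7, a histone-binding subunit, rose by 1.42 (adjusted p = 1.18e-12), and Chd3, a NuRD remodelling ATPase, changed by -1.23 (adjusted p = 4.64e-11). Between genotypes at 24 h, 2 were higher and 5 lower in Raptor-deficient cells, with a median difference of -0.07 against 0.01 over all genes, of which 8.35% were higher and 13.1% lower. The corepressor gene Ctbp2 was higher (0.58, adjusted p = 0.000139), as was the NuRD subunit gene Gatad2b (0.33, adjusted p = 0.00253). Rbbp7 (-0.37, adjusted p = 0.00561) and the methyl-CpG binding subunit gene Mbd3 (-0.40, adjusted p = 0.00738) were lower.

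Enzymes that act on Ikaros proteins, namely kinases, phosphatases and the ubiquitin ligase with the receptor cereblon, were measured for 12 of 13 genes. By 24 h in wild-type cells 4 had risen and 3 fallen, against 25.4% and 24.3% of all genes. At 24 h 1 was higher and 1 lower in Raptor-deficient cells, with a median difference of -0.05, against 8.35% and 13.1% of all genes. The count of lower genes was 2 with the trend and robust prior or the compared groups alone, 3 with the mean of probe sets and 4 with array weights. Csnk2a1, the catalytic subunit of casein kinase 2, which phosphorylates Ikaros, was 0.52 higher (adjusted p = 0.00336), after a wild-type change of -0.99 by that time. The lower gene, Btk, lay below the median of all values in both genotypes, and its call was lost without wild-type replicate 2 or 3 or Raptor-deficient replicate 1, 2 or 3.

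Reported targets of the family in lymphocytes were measured for 24 of 25 genes. In Raptor-deficient cells 1 was lower without stimulation, 5 were higher and 2 lower at 8 h, and 6 were higher and 4 lower at 24 h, with median differences of 0.05, 0.02 and 0.03. The corresponding medians over all genes were -0.01, 0.01 and 0.01, and the shares of all genes were 1.24% lower without stimulation, 4.14% higher and 8.77% lower at 8 h, and 8.35% higher and 13.1% lower at 24 h. The gene lower without stimulation, Cd4, lost its call without wild-type replicate 2, 3 or 4 or Raptor-deficient replicate 1, without the first replicates of unstimulated Raptor-deficient cells and both 24 h groups, with array weights and with the compared groups alone. Il2, whose promoter Ikaros, Aiolos and Helios have each been reported to repress, was lower in Raptor-deficient cells at 8 h (-0.83, adjusted p = 0.00108) and at 24 h (-0.77, adjusted p = 0.00121), without overlap between the groups. Its samples stood at 10.31 to 11.04 against 11.16 to 11.81 at 8 h, and at 9.88 to 10.39 against 10.82 to 11.06 at 24 h.

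Bcl6, the factor of follicular helper T cells, was higher at both times (0.69 and 1.25, adjusted p = 0.0005 and 3.48e-08), and so was the survival gene Bcl2 (0.44 and 0.96, adjusted p = 0.0128 and 7.73e-07). Gata3 was higher by 0.74 and 1.33 (adjusted p = 0.00416 and 1.92e-06). Tbx21, which encodes the T helper 1 factor T-bet, was 1.73 lower at 24 h (adjusted p = 0.000496, with overlapping groups). Ifng, the interferon gamma gene, was near background and not called at any time (-0.12, -0.49 and -0.03, adjusted p = 0.903, 0.241 and 0.955). Ccnd3, a G1 cyclin gene, turned direction as Ikzf3 did but the opposite way, from 0.67 higher at 8 h (adjusted p = 6.33e-06) to -0.86 at 24 h (adjusted p = 2.32e-08).

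Because Helios and Eos are best known from regulatory T cells, genes that mark those cells were set beside them, with 14 of 18 measured. In Raptor-deficient cells 1 was lower without stimulation, 2 were higher and 1 lower at 8 h, and 4 were higher and 2 lower at 24 h, with a median difference of 0.10 at each time. The shares of all genes called at these times are those given for the reported targets. The 2 higher at 8 h were 1 when any single 8 h sample was left out, with the mean of probe sets and with median-centred arrays. The 1 lower at 8 h became 2 with the mean of probe sets, array weights or the compared groups alone. Without stimulation 2 were higher when Raptor-deficient replicate 1 was left out. Foxp3, the defining factor, had 24 h levels of 7.55, 7.22, 7.51 and 7.85 in wild-type cells and 8.40, 7.99, 8.31 and 8.52 in Raptor-deficient cells, a difference of 0.77 without overlap (adjusted p = 0.000275). It did not pass the threshold without stimulation (0.32, adjusted p = 0.314) or at 8 h (0.02, adjusted p = 0.954).

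The other markers did not move as 1 group. Tnfrsf18, the gene of the receptor GITR, was 0.60 higher at 24 h (adjusted p = 5.11e-05), and Tnfrsf9, the gene of the costimulatory receptor 4-1BB, was 0.97 higher (adjusted p = 4.52e-06). Ctla4, the inhibitory receptor gene, was lower at all 3 times (-0.87, -1.09 and -0.83, adjusted p = 0.00137, 1.5e-05 and 0.000175), and Nrp1, a surface marker of thymus-derived regulatory T cells, was 0.52 lower at 24 h (adjusted p = 0.00297). Il2ra, the gene of CD25, on which the cells had been sorted as negative, was below the median of all genes without stimulation (means 3.97 and 4.35) and at 10.38 and 10.90 after 24 h.

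Many of these genes are also known as activation genes of conventional T cells. Of the 14, 10 rose and 2 fell in wild-type cells by 24 h, against 25.4% and 24.3% of all genes. Which cells gave these changes was not tested. The summed linear intensity of the 14 ran from 1190 to 1360 in unstimulated wild-type and from 1270 to 1540 in unstimulated Raptor-deficient samples. At 8 h it ran from 5120 to 5320 and from 5300 to 6200, and at 24 h from 6470 to 7040 and from 7890 to 8910. Group means of 3 to 6 of the 14 genes lay below the median of all genes. The part of regulatory T cells in the Ikzf2 and Ikzf4 differences was not tested.

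**Figure D4:**
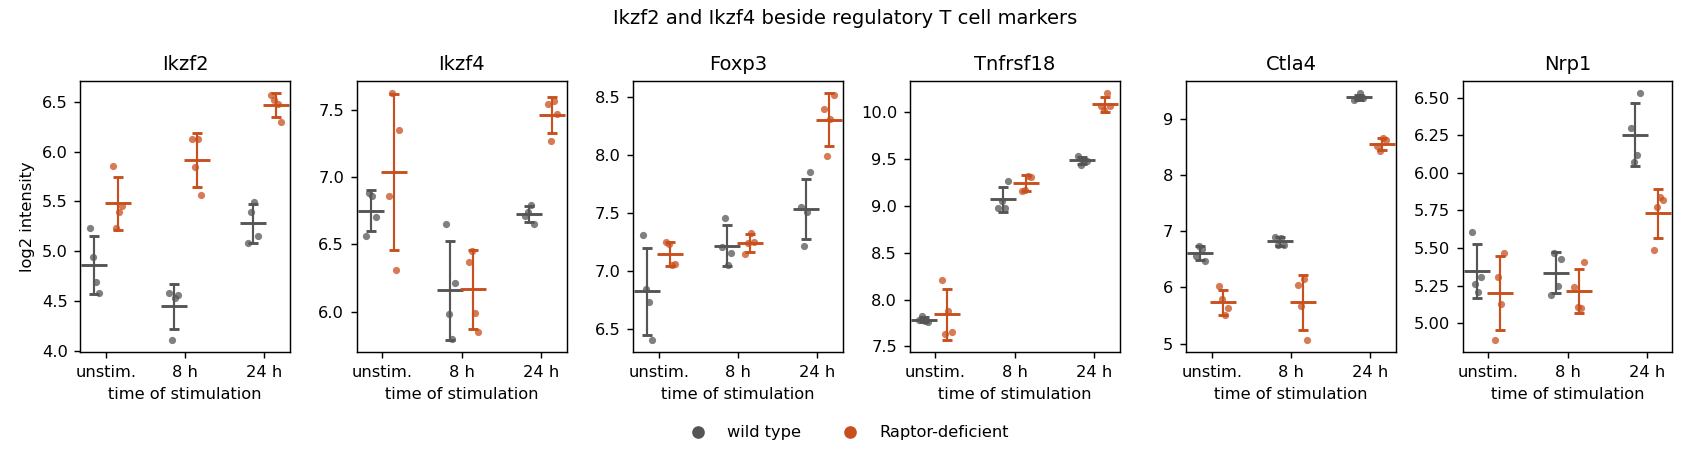
Log2 intensity (vertical axis, a separate scale for each gene) of Ikzf2, Ikzf4 and 4 regulatory T cell markers by time of stimulation (horizontal axis). Points are samples and bars the mean and SD of 4 samples. At 24 h Raptor-deficient cells were higher for Foxp3 (8.31 against 7.53) and Tnfrsf18 (10.08 against 9.49) and lower for Ctla4 (8.55 against 9.38) and Nrp1 (5.73 against 6.25).

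B cell markers were counted with 14 measured of 15 listed. None was called higher without stimulation, 1 was at 8 h (H2-Aa) and 5 were at 24 h, among them Pax5 (1.37, adjusted p = 3.55e-06) and the antigen receptor gene Cd79a (0.64, adjusted p = 0.0443). The shares of all genes called higher were 0.702%, 4.14% and 8.35%. The 24 h count ranged from 2 to 5 when single samples were left out, moved most without wild-type replicate 4 or Raptor-deficient replicate 1, and was 3 without the first replicates named above. The 8 h count was 2 without Raptor-deficient replicate 4 or with the mean of probe sets, 3 with a filter on dim genes, array weights or the compared groups alone, and 4 with the replicate block. The unstimulated count was 1 without Raptor-deficient replicate 4 and 2 with that block. Summed intensities ran from 460 to 608 against 574 to 856 without stimulation (wild type first), from 510 to 578 against 629 to 901 at 8 h, and from 460 to 581 against 639 to 1050 at 24 h. Group means of 8 to 11 of the 14 lay below the median of all genes. B cells express Ikaros and Aiolos strongly, and their part in the differences of family members was not tested.

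T cell markers were called in both directions between genotypes. Without stimulation 2 of 13 were lower, the coreceptor gene Cd4 (-0.37, adjusted p = 0.027) and Cd6 (-0.69, adjusted p = 2.82e-05), against 1.24% of all genes, and this count ranged from 1 to 3 with single samples left out. It was 1 without wild-type replicate 2, 3 or 4 or Raptor-deficient replicate 1, with array weights, with the compared groups alone and without the first replicates named above. At 8 h 4 were lower (8.77% of all genes), these 2 with Thy1 (-0.70, adjusted p = 5.28e-05) and the antigen receptor kinase gene Zap70 (-0.67, adjusted p = 0.00205), and the median difference of the 13 was -0.25. At 24 h Thy1 was lower, and Cd27 (0.98, adjusted p = 4.28e-06) and Lef1 (0.48, adjusted p = 0.00268) were higher; with array weights 4 were higher and 2 lower. Summed intensities ran from 14100 to 14400 against 12900 to 14900 without stimulation (wild type first), from 14600 to 16600 against 13400 to 14500 at 8 h, and from 15300 to 16300 against 16500 to 17500 at 24 h. The part of this in the differences of family members was not tested.

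The remaining cell type lists were counted in the same way. NK cell markers had 3 of 10 higher in Raptor-deficient cells at 24 h (sums 670 to 825 against 520 to 623), against 8.35% of all genes. None was called at 8 h, but 1 was higher there with cyclic loess, array weights or the compared groups alone. Without stimulation 1 was lower, against 1.24% of all genes. Myeloid markers had 1, 2 and 2 of 12 higher in time order (sums 368 to 443 against 325 to 359, 404 to 449 against 311 to 335, and 304 to 346 against 273 to 298). The shares of all genes called higher at these times were 0.702%, 4.14% and 8.35%. With single samples left out, the myeloid count ranged from 0 to 2 without stimulation and at 24 h, where it moved without wild-type replicate 2, 3 or 4 or Raptor-deficient replicate 2 or 3. With the dim filter the myeloid count was 1 at 8 h and at 24 h, and with the compared groups alone it was 4 at 8 h. Without stimulation it was 0 with array weights, with the compared groups alone and without the first replicates named above. It was 2 there with median-centred arrays.

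None of the 2 CD8 T cell, 4 erythroid and 7 liver genes measured was called between genotypes at any time with all samples in the 6-group model. At 8 h both CD8 T cell markers were lower with the dim filter, with array weights and without Raptor-deficient replicate 1, and 1 of them was lower with the replicate block, median-centred arrays, the trend and robust prior or the compared groups alone. At 8 h and at 24 h 1 erythroid marker was higher with the replicate block and with the compared groups alone, and at 24 h also with the mean of probe sets. Without stimulation 1 CD8 T cell marker was lower when Raptor-deficient replicate 1 was left out. The part of these cells in the differences of family members was not tested.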

How the data were processed

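RNA of 24 samples was measured on Affymetrix HT MG-430 PM arrays. The deposited values are log2 intensities, made by the authors with RMA and Partek 6.5, per the submitters' processing notes. RMA quantile-normalises arrays, so levels are relative to each array's distribution. Of 45141 probe sets, 28898 had 1 gene symbol in the platform annotation, 551 had several and 15692 were not listed. The brightest probe set per gene left 17097 genes, with no filter on level. In R 4.3.3, limma 3.58.1 fitted 6 group means to all 24 arrays (18 residual degrees of freedom), with Benjamini-Hochberg adjustment within each of 11 planned comparisons and 1 comparison added after seeing the data. Tests are two-sided. For Ikzf2 no test of a comparison that includes stimulated samples is given, since those samples chose it. Its unstimulated test still takes its spread from all 24 arrays, the stimulated ones included. The pipeline was tested on simulated data.

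The members, the 3 pathway lists and the 8 cell type lists were chosen with earlier results of these data known. Named besides the members are Rptor, the 5 nearest patterns of each member whose group means spanned at least 1, up to 4 called genes of smallest p per list and genotype comparison or wild-type 24 h response, a few fixed genes (Il2, Ifng, Tbx21, Foxp3, Il2ra, Ctla4) and the marker with the largest difference. Alb, Nrp1, H2-Aa, Cd79a, Thy1, Zap70, Cd27, Lef1 and Cd6 were chosen after their values were seen. Alternatives were other probe set summaries, a filter on dim genes, other normalizations, array weights, other priors, fits on the compared groups alone, replicate blocks and left-out samples. Same-numbered samples were not treated as pairs: the correlations of their deviations were not all over 0.1 in any pair of groups. The same number was still the best match for all 4 samples between genotypes at 24 h and between wild-type 8 h and 24 h. In the other pairs of groups it was so for 2 or 3 of 4, also more than unrelated numbers give on average. Shared handling by replicate number was not tested. The number of arrays limits the precision. RefSeq promoter windows were found for 2 of the 5 members.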

Additional observations from a re-analysis of the deposited data

Results flagged for a closer look

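The Ikzf3 response to 24 h of stimulation differed between genotypes by 0.91 (adjusted p = 0.000264, limma), and the change between 8 h and 24 h differed by 1.44 (adjusted p = 4.15e-07). From the unstimulated state to 8 h, mean Ikzf2 moved down in wild-type and up in Raptor-deficient cells, a difference of 0.85 that was not tested because the gene had been chosen for its levels in these groups.

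In 3 groups of 4 samples, 1 sample stood apart by Dixon's ratio of its gap to the group's range, above its critical value at 95%. These were Ikzf2 in wild-type cells at 8 h (replicate 2 at 4.11, ratio 0.879), the second probe set of Ikzf1 in wild-type cells at 8 h (0.833) and the second probe set of Ikzf5 in unstimulated wild-type cells (replicate 3 at 6.29, ratio 0.962). Among 60 groups tested, chance gives about 1 in 20.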

How the results depend on the processing

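Of 49 tests of family members, 21 were called, 17 of which kept their call under every alternative run, and none of the 21 changed direction. Over all alternatives, 898 of 978 member tests kept direction and side of the threshold, 28 lost the call, 34 gained it and 18 changed sign, all of these 18 in differences that were not called. The calls of Ikzf3 at 8 h, at 24 h and between the genotypes' changes from 8 h to 24 h, and of Ikzf4 at 24 h, held throughout. Values changed sign for Ikzf1 at 8 h between genotypes (-0.04 with the mean of probe sets), Ikzf4 at 8 h (-0.02 with median-centred arrays), Ikzf5 between 8 h and 24 h in Raptor-deficient cells (-0.07 with cyclic loess, -0.02 with median-centred arrays and -0.02 without the first replicates of unstimulated Raptor-deficient and both 24 h groups) and Ikzf5 between unstimulated genotypes (0.00 without Raptor-deficient replicates 2 and 3). With single samples left out, signs changed for Ikzf4 at 24 h in wild type (-0.09 to 0.01), Ikzf5 at 24 h in Raptor-deficient cells (-0.19 to 0.00) and from 8 h (-0.04 to 0.12), and between genotypes at 8 h for Ikzf1 (-0.00 to 0.07) and Ikzf4 (-0.11 to 0.17). The cause was not tested.

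Counts of called members moved as follows. For the response difference at 8 h the count went from 0 to 1, Ikzf3, with the mean of probe sets, a filter on dim genes, median-centred arrays, an intensity trend with a robust prior, the replicate block (-0.53, adjusted p = 0.0112) and the block within genotype (adjusted p = 0.0148). For that at 24 h it went from 1 to 2, with Ikzf1 added, with the dim filter, the trend and robust prior, and without Raptor-deficient unstimulated replicates 2 and 3. Between wild-type 8 h and 24 h it went from 3 to 1 with median-centred arrays and without the first replicates named above. Between unstimulated genotypes it went from 1 to 0 with array weights, with only the compared groups in the fit, and without those first replicates. At 8 h between genotypes it went from 1 to 2 with array weights (Ikzf5), and for the difference of changes from 8 h to 24 h from 1 to 2 with only the compared groups (Ikzf4). With single samples left out, the counts ranged from 0 to 2 between unstimulated genotypes, 1 to 2 at 8 h, 1 to 2 for wild type between 8 h and 24 h, 0 to 1 for the response difference at 8 h and 1 to 2 for that at 24 h. Over all genes, the calls between unstimulated genotypes went from 332 to 179 with array weights, 52 with only these groups and 718 without Raptor-deficient replicates 2 and 3. With single samples left out they ranged from 196 to 718, moving over 1.5 times without wild-type replicate 1, 2 or 3 (lowest 196) or Raptor-deficient replicate 3 (718). The other moves over 1.5 times were the response difference at 8 h (1076 to 548 with only the compared groups, 1671 without those replicates, and 753 to 1653 with single samples left out, with 1653 without Raptor-deficient unstimulated replicate 3) and the later change (774 to 1294 with array weights).

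The labels do not say whether same-numbered samples are pairs, and the correlations of their deviations ran from -0.07 to 0.25. The same number was the best match for 2 to 4 of 4 samples in each pair of groups, more than unrelated numbers give on average. Whether such samples shared an animal or handling was not tested. The replicate block also called the Ikzf3 difference of Raptor-deficient cells at 8 h (0.26, adjusted p = 0.0241), as did the block within genotype (0.26, adjusted p = 0.0267), which lost the wild-type rise of Ikzf1 from 8 h (adjusted p = 0.0521). Apart from these and the Ikzf3 response difference at 8 h, neither block changed a member's call. Levels near background limit Ikzf2 in wild-type cells.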
